A study of Homo sapiens with 8 samples.

Results

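Nonsense-mediated decay (NMD) transcripts were examined in SH-SY5Y cells, a human neuroblastoma cell line, before and after differentiation with 9-cis retinoic acid. A transcript was a member when its GENCODE 29 transcript type was nonsense_mediated_decay, with identifiers matched without their version. Of the 194993 transcripts in the deposited table, 180930 matched GENCODE 29 and 12837 of these were members, in 6536 genes. The members made up 84.0% of the 15283 NMD transcripts of that annotation. RNA was measured in 4 undifferentiated libraries (replicates 17 to 20) and in 4 libraries of cells kept in 1 µM 9-cis retinoic acid for 7 days (replicates 21 to 24), from one parental line with no genetic change named in the labels. The labels give neither a vehicle nor a time in culture for the undifferentiated cells, so treatment and days in culture cannot be told apart. They also do not say whether the replicates were separate cultures, so each p-value is set against a spread among libraries that may be technical only.

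NMD is a surveillance pathway that removes mRNAs whose reading frame ends too early. When a ribosome stops well before the last exon-exon junction, the exon junction complex left downstream of the stop recruits the UPF proteins, the SMG1 kinase phosphorylates UPF1, and effectors such as SMG5 and SMG6 bring about cleavage and decay. The same route is used by splicing factors and ribosomal proteins to limit their own amounts: they include a "poison" exon or retain an intron and so divert their mRNA to decay. The annotation type is a prediction from transcript structure, and what was measured here was the steady level of each transcript and not its rate of decay.

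The ends of the reading frames of 7 members whose share of their gene changed (values further on) are shown to make these structures visible. Each is the last 27 coding bases and, in capitals, the stop codon, read 5′ to 3′ on the transcript strand from GENCODE 29 transcripts on GRCh38. The first 4 stop in an exon that lies wholly inside an intron of the main coding transcript, defined as the protein_coding transcript of the gene with the highest mean TPM (a length-corrected abundance that is scaled to a fixed sum in each library). The fifth and sixth stop inside an exon of the main coding transcript but in another place, and the last keeps the stop of the main coding transcript and has an intron removed after it.
LDAF1: tggttttctcccaggtctcacgagatcTGA
PET100: agggagctgtggccacctgagaagccaTGA
ZC3HC1: tactttgatcaatcccctatatgtgctTAA
CALD1: cctcttcttccggagtgggtctttctcTAA
VMP1: gaatggacctcaaatatgtgcaacgtaTAG
SMC1A: gaaccccaaagagaggacagctctattTGA
CREBZF: cggaaggcgtcgtcttctcttaaaatgTAG
The LDAF1 stop lies in exon 6 of 7 at chr16:21178797-21178932 (GRCh38, plus strand), 120 bases before the last junction. PET100 stops in exon 4 of 5 at chr19:7631232-7631321 (plus strand), 84 bases before it. ZC3HC1 stops in exon 3 of 4 at chr7:130043628-130043880 (minus strand), with 223 bases to the last junction. CALD1 stops in exon 11 of 13 at chr7:134962820-134962934 (plus strand), with 97 bases and 2 junctions after the stop. Not all of these frames are much shortened. The coding length of the LDAF1 member is 492 bases against 486 in the main coding transcript, and that of CALD1 1611 against 1617. It is 288 against 1509 for ZC3HC1, and 139 against 222 for PET100, whose start is not annotated.

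Across the members, 12825 of 12837 had an annotated stop codon, and in 99.04% of these it lay 50 bases or more before the last junction, which is the definition of the type and not a finding. The median distance was 290 bases. The stop lay outside the exons of the main coding transcript in 5643 members (44.0%) and at another place inside them in 5771 (45.0%). It was the same stop in 504 (3.93%), and 919 members could not be classified because they lacked a stop or a main coding transcript. In 3172 members (24.7%) the exon with the stop was contained in an intron of the main coding transcript. The stop codon was TGA in 59.1%, TAA in 21.6% and TAG in 19.3%. The start of the reading frame was not annotated in 26.9%, so many members are partial models.

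**Figure D1:**
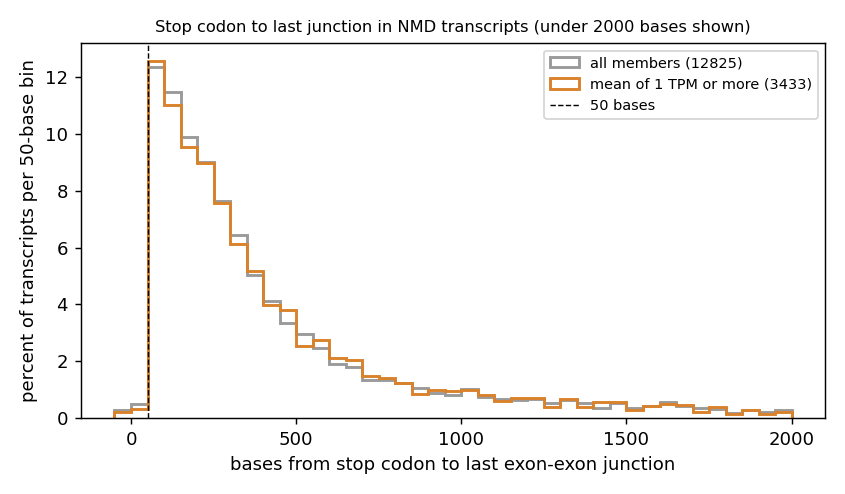
Distance in bases from the stop codon to the last exon-exon junction (x axis) against the percent of transcripts per 50-base bin (y axis), for the 12825 members with a stop codon (grey) and the 3433 of these with a mean of 1 TPM or more (orange). The dashed line marks 50 bases, and both sets have most of their transcripts between it and about 500 bases.

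Of the members, 2411 were at 0 in every library and 3441, in 2462 genes, had a mean of 1 TPM or more and were tested. The other 9396 were not tested. A mean of 10 TPM or more was reached by 436 members, which held 61.3% of the summed member TPM, and the 10 highest members held 21.5%. Read depth is unknown from TPM, so no counting error can be given for any of these values. Salmon, the quantifier named by the submitters, divides reads between overlapping transcripts of a gene, so the level of 1 member is less certain than that of its gene. At 0 in one library and at 5 TPM or more in another library of the same group were 116 tested members (3.37%), against 2.12% of protein_coding transcripts at 1 TPM or more.

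Marker genes were read beside the identity in the labels. Of 12 sympathetic neuroblastoma markers all were measurable, 1 rose and 9 fell, and the 5 retinoic acid response genes CYP26A1, CYP26B1, RARB, TGM2 and DHRS3 all rose. Over all tested genes 33.9% were called higher and 17.4% lower. HBB, HBA1, CD3E, KRT5, KRT14, CDH16 and SOX10 were at or near 0. As whole lists, 5 blood markers summed to 0.492 to 0.640 TPM before and 0.237 to 0.662 TPM after. The sum of 5 epithelial markers was 1.21 to 1.76 TPM before and 1.22 to 1.98 TPM after, and 1 of them was tested and not called. For 3 endothelial markers it was 0.0225 to 0.0477 TPM before and 0.0844 to 0.254 TPM after. The summed TPM of 5 fibroblast markers was 72.0 to 80.3 in undifferentiated and 115 to 141 in differentiated libraries, and that of 5 Schwann cell markers 25.8 to 28.1 and 59.7 to 68.5. Of the fibroblast markers 4 were tested, 2 rose and 0 fell. Of the Schwann cell markers 3 were tested, 2 rose and 0 fell. Whether cells of another state contribute to any change in a member was not tested, and in bulk RNA fewer cells of a type and less RNA per cell cannot be told apart. Lane 7 held undifferentiated replicates 17 and 18, and lane 8 held the remaining 6.

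The members together kept a nearly constant place in the transcriptome. Their summed TPM was 27988, 28189, 27039 and 28265 in the undifferentiated and 28079, 25744, 27214 and 27987 in the differentiated libraries. The groups overlapped, and differentiated replicate 22 was the lowest library. The means were 27870 ± 566 and 27256 ± 1080 (SD, n = 4), a difference of -614 TPM, which is smaller than the SD of the differentiated group and shrank to -110 without replicate 22. Without the 10 highest members the difference was 208 TPM, and with median-of-ratios scaling it was -1773 TPM. As a share of the matched TPM this was 2.96% ± 0.0636 against 2.89% ± 0.121. Replicate 22 was also lowest in transcripts with a retained intron (6.49% against 7.53% to 8.61% in the other 7 libraries) and in processed transcripts, and highest in protein_coding transcripts (80.7%). Protein_coding transcripts held 77.9% ± 0.529 and 77.8% ± 2.04 of the matched TPM in the 2 groups.

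**Figure D2:**
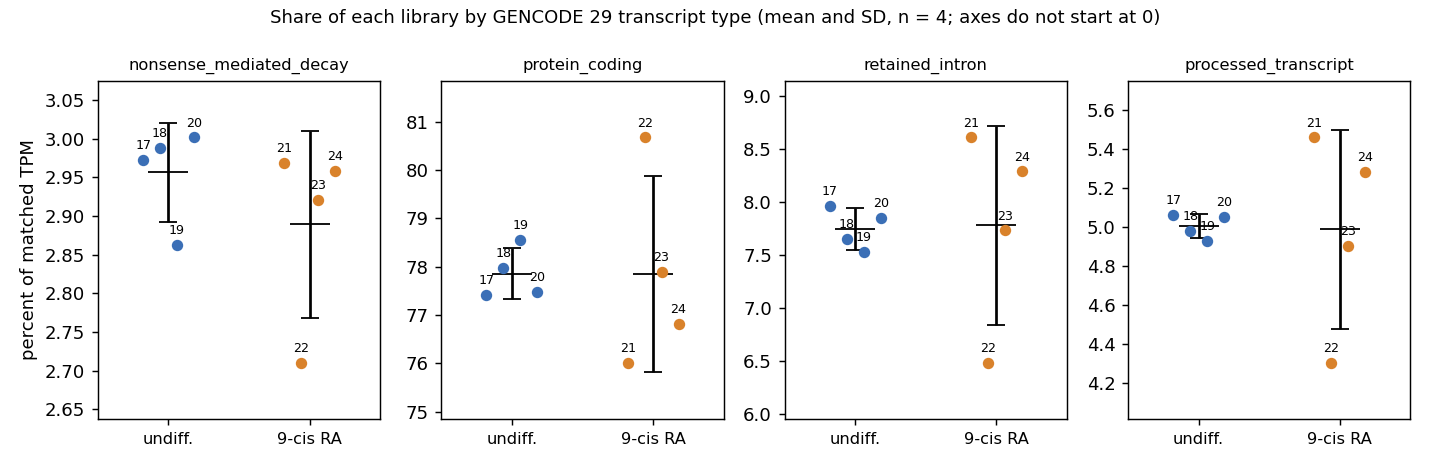
Percent of matched TPM held by each of 4 GENCODE 29 transcript types (y axes, which do not start at 0) in the undifferentiated (blue) and 9-cis retinoic acid (orange) libraries; points are single libraries with their replicate number, bars the mean and SD of 4. The NMD transcripts sit between 2.71% and 3.002% in all 8 libraries, and replicate 22 stands apart in every type.

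Single members moved in both directions. In limma with Benjamini-Hochberg adjustment over all 56511 tested transcripts, 392 of 3441 members (11.4%) rose and 285 (8.28%) fell after 9-cis retinoic acid. Over all tested transcripts 18.3% were called higher and 10.3% lower. For protein_coding transcripts the shares were 24.0% and 12.4%, and for retained_intron transcripts 13.5% and 8.36%. The median log2 fold change, on the log2(TPM+1) scale used throughout, was -5.1e-05 for members and 0.04 for all transcripts. A change of 1 or more on this scale was reached by 119 of the risen and 68 of the fallen members. Of the called members 57.9% were higher, and this split turned with the scaling: it was 42.5% with median-of-ratios scaling (283 higher, 383 lower) and 40.1% with quantile normalization (300 higher, 449 lower). Within lane 8, with 2 undifferentiated libraries, 178 were higher and 75 lower (70.4% higher). The split over all tested transcripts moved too, from 64.0% higher to 53.5% and 49.6% with the 2 scalings and 73.1% within lane 8.

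Most called members went the way of their gene. Of the 392 that rose, the summed TPM of the gene also rose for 335 (85.5%), was not called for 47 and fell for 10. Of the 285 that fell, the gene fell for 218 (76.5%), was not called for 55 and rose for 12. These gene sums include the member itself. The same counts were not made for other transcript types, so whether this is particular to members was not tested. Against the other transcripts of the gene alone, the log2 fold changes of the 3441 tested members had a Pearson r of 0.61, a description across transcripts that share libraries and genes.

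**Figure D3:**
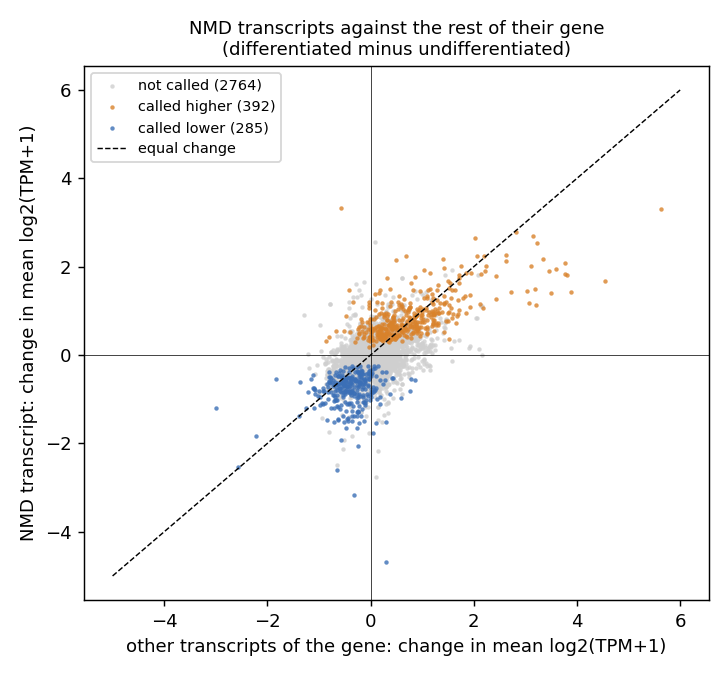
Change in mean log2(TPM+1), differentiated minus undifferentiated, of each of the 3441 tested members (y axis) against the change in the other transcripts of its gene (x axis). Orange members were called higher (392), blue lower (285) and grey not called (2764); most called members lie in the quadrants where both moved the same way.

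The 8 members at the highest mean level included several of ribosomal protein genes, and those fell. RPL37A, a protein of the large ribosomal subunit, had member ENST00000420712 at 1787, 1735, 1858 and 1835 TPM in undifferentiated and 1031, 1309, 1372 and 1335 TPM in differentiated libraries. The groups did not overlap, and the log2 fold change was -0.52 ± 0.09 (SE; limma adjusted p = 0.00291), which missed the threshold with quantile normalization (adjusted p = 0.0792). Its share of the gene's summed TPM was 36.7% ± 1.47 before and 35.0% ± 1.88 after, so the member fell with its gene. For RPS3, of the small subunit, members ENST00000528439 and ENST00000530721 fell by 0.60 and 0.66 on the log2 scale and held 35.2% and 18.5% of the gene before, 36.6% and 18.5% after. RPL35A (ENST00000429437) fell by 0.66, RACK1 (ENST00000511473), a scaffold protein of the small subunit, by 0.39, and HNRNPA1 (ENST00000547566), an hnRNP splicing factor, by 0.71. These genes have many processed pseudogenes, so their values are uncertain.

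B2M, the light chain of MHC class I, went the other way. Its member ENST00000561424 was at 303, 306, 292 and 289.5 TPM in undifferentiated and 1159, 1193, 1205 and 1261 TPM in differentiated libraries. Every differentiated library was far above every undifferentiated one, a log2 fold change of 2.01. Its stop codon is that of the main coding transcript. It held 69.1% ± 1.49 of the gene before and 65.6% ± 4.94 after, so the whole gene rose from a mean of 431 to 1844 TPM. COX6C, a subunit of cytochrome c oxidase, had a pair of members with opposite changes. ENST00000522934 rose by 0.31 from 458 ± 23.0 to 570 ± 50.8 TPM (SD, n = 4), a call lost with median-of-ratios scaling and within lane 8. ENST00000520517 was at 79.0, 32.6, 36.3 and 35.7 TPM before and at 0, 7.31, 0 and 0 TPM after. ENST00000522934 went from 84.1% to 92.5% of the gene. Summed over all members of COX6C the share hardly moved, from 92.5% ± 0.689 to 92.7% ± 0.843 (SD, n = 4).

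The largest rises in TPM were in genes that rose as a whole. Members named for the largest rises and falls in TPM, share or summed share were picked among calls whose groups did not overlap. A lack of overlap is thus no added support for them. IGFBP6, an insulin-like growth factor binding protein, had its member at 0.925, 0.987, 0.663 and 0.888 TPM before and 13.3, 15.8, 19.4 and 22.2 TPM after. All treated libraries were above all untreated ones; the log2 fold change was 3.30 ± 0.16 (SE; limma adjusted p = 3.68e-06), and the gene changed by 5.48. Members of genes of the extracellular matrix followed: EFEMP2 (fibulin-4) rose from a mean of 1.81 to 18.4 TPM (2.78 on the log2 scale) and FBN1 (fibrillin-1) from 4.24 to 31.8 TPM (2.64). BCO2, a carotenoid-cleaving oxygenase, had a member that rose by 2.69, and TXK, a Tec-family kinase, one that rose by 2.53. MOV10L1, a piRNA pathway helicase, TNS2 (tensin 2) and DYNC2H1, the motor chain of ciliary dynein, had rises of 2.26, 2.25 and 2.25, and the second B2M member, ENST00000349264, one of 2.24. The DYNC2H1 gene rose from 6.54 to 17.8 TPM, and its member went from 14.3% to 45.3% of the gene. The groups did not overlap in that share, which was not called (limma adjusted p = 0.0689). The sizes for low members depended on the pseudocount: with 5 and with 0.1 TPM in place of 1, the rise was 1.11 and 5.52 for BCO2, 1.01 and 5.02 for TXK, 0.86 and 4.71 for MOV10L1 and 0.90 and 4.70 for TNS2, each still called. For the B2M member it was 2.15 and 2.26. BAZ1A, a chromatin remodelling subunit, was the exception: its member ENST00000555331 was listed at 0 in all 4 undifferentiated libraries and at 3.35, 17.9, 17.9 and 5.50 TPM in the differentiated ones. The BAZ1A gene was not called (55.4 against 48.2 TPM). No fold is given for that member.

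Falls were led, after COX6C ENST00000520517, by ELP2, a subunit of the Elongator complex, whose member ENST00000540799 was at 22.9, 20.3, 28.1 and 13.7 TPM before and 5.10, 0, 4.36 and 0 TPM after. The groups did not overlap, and the log2 fold change was -3.18 ± 0.65 (limma adjusted p = 0.00803). CCT5, a chaperonin subunit, had a member that fell by 2.60 with an limma adjusted p of 0.0457. DDC, which makes dopamine and serotonin, had a tightly measured member at 11.4 to 13.1 TPM before and 1.21 to 1.40 TPM after, a fall of 2.54 beside one of 2.68 for the gene. SMC1A, a cohesin subunit, had a member that fell by 2.05 while the gene fell by 0.45. ICE2, of the little elongation complex, and SLCO4A1, an organic anion transporter, had members that fell by 1.92 and 1.84. BAP1 (a deubiquitinase), EIF2A (an initiation factor) and SCAMP5 (a secretory carrier protein) had members that fell by 1.75, 1.66 and 1.65, and the BAP1 and SCAMP5 genes were not called. The sizes of these low members depended on the settings. Over the alternatives the log2 fold change was -3.70 to -0.66 for BAP1 and -3.03 to -0.66 for EIF2A. It was -3.24 to -0.63 for SCAMP5 and -2.87 to -0.78 for SLCO4A1. The CCT5 and ICE2 calls were lost without any 1 of the undifferentiated libraries and without differentiated replicate 23, CCT5 also without 22 and ICE2 without 21. Both were also lost with a pseudocount of 0.1 TPM and with no filter on low values, and that of CCT5 with limma without the trend. Within lane 8 the calls of CCT5, ICE2, ELP2 and SCAMP5 were all lost.

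Among the 22 members called against their gene, 2 were singled out after their values were seen. SRSF1 is an SR protein that controls its own mRNA through NMD. Its member ENST00000581979 was at 16.9, 13.1, 14.5 and 14.1 TPM before and 22.5, 19.5, 20.1 and 24.8 TPM after. The member rose by 0.54 ± 0.10 (limma adjusted p = 0.00578) while the gene fell from 502 to 364 TPM. Both of these calls held with median-of-ratios scaling, with quantile normalization, within lane 8 and without each library. EIF4A2, an RNA helicase of translation initiation, had member ENST00000425053 at 43.8 to 45.9 TPM before and 32.9 to 36.6 TPM after, while the gene rose from 233 to 266 TPM. The EIF4A2 gene was not called with median-of-ratios scaling. Both members are minor: that of SRSF1 held under 10% of its gene, and that of EIF4A2 went from 19.2% to 12.9%, short of the 10-point minimum.

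The share of a gene's TPM held by a member was rarely called as changed. Shares were tested for 1200 members of 1072 genes that had 5 TPM or more in each group and a share averaging 10% to 90%. A call needed an adjusted p under 0.05 (limma on the arcsine square root of the share) and a difference of 10 percentage points. Of these, 5 rose and 6 fell, where 1.33% of all 22951 tested transcripts rose and 1.07% fell. Without the 10-point minimum, 8 rose and 13 fell. The median difference was -0.30 points for members and 0.25 points for all, and for members it was -0.03 points without replicate 17 and 0.14 points within lane 8. In 867 members (72.2%) the difference was under 5 points, and in 77 it was 10 points or more. In simulated data the share test recovered 48% of planted rises of 15 points and 84% of those of 30 points. A share without a call may therefore still have changed. The simulation planted 100 rises of each size and no falls, with noise independent between libraries. Its rates may not carry over to falls or to the real libraries. Of the members called higher in TPM, 194 had a tested share and 4 of them also rose in share; of those called lower, 113 had one and 2 fell in share.

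The falls in share came in 2 forms. In LDAF1, VMP1, REX1BD and CALD1 the gene rose and the member's TPM was not called. In SMC1A and ZC3HC1 the gene and the member both fell, the member by more. LDAF1, which helps form lipid droplets, had member ENST00000573487 at 46.4%, 42.4%, 45.9% and 49.1% of the gene in undifferentiated and 23.8%, 23.4%, 23.1% and 22.9% in differentiated libraries. The difference was -22.6 points (limma adjusted p = 0.00147). The member itself stood at 2.15 to 2.69 TPM before and 2.89 to 3.77 TPM after while the gene went from 5.35 ± 0.71 to 14.2 ± 1.55 TPM (SD, n = 4). The main coding transcript, TMEM159-202 (the earlier name of the gene), went from 18.7% to 42.0%.

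VMP1, a membrane protein needed for autophagosome formation, had member ENST00000585847 at 38.4%, 44.2%, 33.9% and 39.7% before and 20.4%, 11.5%, 15.7% and 18.5% after (difference -22.6 points, limma adjusted p = 0.00992). Its TPM was 34.7 ± 4.45 before and 32.7 ± 10.1 after, while the gene rose from 88.7 to 195 TPM. The transcript that gained most was VMP1-205, of retained_intron type, from 2.98% to 29.8%, and the main coding transcript also lost share, from 30.04% to 11.5%. Against protein_coding and NMD transcripts alone the member's difference was -2.85 points (limma adjusted p = 0.619), which was not called. CALD1, the actin-binding caldesmon, had its member (ENST00000443197) go from 30.8% ± 3.55 to 19.6% ± 2.59 as the main coding transcript, CALD1-202, went from 27.8% to 51.5%. In REX1BD the member held 23.9% to 32.8% before and 10.8% to 21.3% after.

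SMC1A had member ENST00000463684 at 18.0%, 19.0%, 15.3% and 19.4% before and 6.23%, 2.37%, 4.27% and 5.75% after, a difference of -13.3 points (limma adjusted p = 0.0082). The main coding transcript took up the difference, from 73.8% to 87.1%. In ZC3HC1, which encodes a protein of the nuclear basket, member ENST00000484432 stood at 12.03 to 14.8 TPM before and 3.69 to 5.71 TPM after. Its share fell from 22.3% ± 1.55 to 11.1% ± 1.19. The shares of LDAF1 and SMC1A kept their call under every alternative in which they were tested except the permutation test, and neither met the filters within lane 8. The shares of REX1BD and CALD1 lost their call without any 1 of the undifferentiated libraries and without differentiated replicate 23 or 24, REX1BD also without 22 and CALD1 without 21. Both lost it too with a gene minimum of 1 TPM and with no filter on the share. Against protein_coding and NMD transcripts alone the REX1BD difference was -37.4 points, in place of -13.9.

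Of the 5 rises in share, that of PET100 was the plainest. PET100, an assembly factor of cytochrome c oxidase, had member ENST00000598540 at 12.7%, 9.91%, 8.41% and 12.6% before and 23.5%, 20.9%, 22.3% and 26.0% after. The difference was 12.3 points (limma adjusted p = 0.0145), and the member's TPM went from 9.71 ± 1.94 to 27.0 ± 3.41 (SD, n = 4) as the gene rose by 0.38 on the log2 scale. CREBZF, a bZIP transcription cofactor, had its member (ENST00000490820) go from 28.5% ± 2.04 to 42.5% ± 3.89 while the gene was not called. That member codes for the same 1065 coding bases as the main coding transcript and differs by the intron removed after the stop. CTBS, a lysosomal chitobiase, had its member go from 22.9% ± 4.45 to 39.3% ± 3.72 as the gene rose from 6.16 to 19.5 TPM.

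The remaining rises need care. CKMT1B, a mitochondrial creatine kinase, has a near-identical copy, CKMT1A, between which reads may be split. Its member fell from 8.93 to 5.78 TPM while the gene fell further, from 70.6 to 22.8 TPM, so the share rose from 12.7% ± 1.89 to 26.1% ± 6.49. The BAZ1A member took 7.05%, 36.6%, 33.1% and 13.1% of the gene in the differentiated libraries, a wide spread, against a listed 0 in the undifferentiated ones. The shares of CREBZF, CKMT1B and BAZ1A lost their call without any 1 of the undifferentiated libraries, that of CTBS without replicate 18, 19, 20 or 23 and that of PET100 without replicate 18. CREBZF also lost it without 23 or 24, and CKMT1B without 21, 23 or 24. Within lane 8, with 2 undifferentiated libraries, none of the 11 was called.

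**Figure D4:**
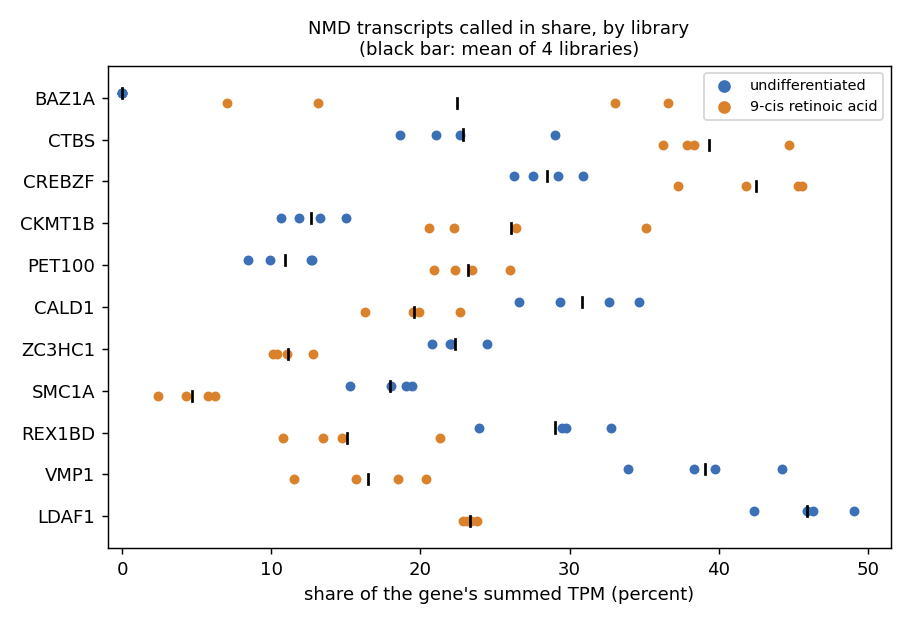
Share of the gene's summed TPM in percent (x axis) held by each of the 11 members called in share (rows), with 1 point per library (undifferentiated blue, 9-cis retinoic acid orange) and a black bar for the mean of 4. The groups do not overlap in any of the 11, which the rule for naming required. LDAF1 has the tightest differentiated group (22.9% to 23.8%) and BAZ1A the widest (7.05% to 36.6%).

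Summed over all members of a gene, NMD transcripts held a small part of most genes. Of 4368 genes with a member and 5 TPM or more in each group, 2997 (68.6%) had a mean summed share under 10% and 106 had 50% or more. The median over genes was 4.23% to 4.43% in undifferentiated libraries and 4.25%, 3.12%, 3.89% and 4.14% in differentiated ones, with replicate 22 lowest. The highest-level genes with a mean share of 50% or more were RPS3 (55.1%), B2M (79.4%), LDHA (50.7%), which encodes lactate dehydrogenase A, and COX6C (92.6%). MAD2L1, a spindle checkpoint protein, held 80.9% of its TPM in members and POLR2L, a subunit of RNA polymerases, 75.7%.

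The summed share was tested for 1356 genes, of which 5 rose and 12 fell, where 1.5% of all 13426 tested pairs of gene and transcript type rose and 1.43% fell. The median difference was -0.50 points, against 0.07 points over all pairs. It ranged from -0.26 without replicate 22 to -0.83 without replicate 21 and was -0.20 within lane 8. Of the 17 calls, 9 were also made on 1 transcript of the gene. PPP1R12B, a regulatory subunit of myosin phosphatase, had the largest fall: its members held 43.5%, 29.1%, 39.4% and 34.7% of the gene before and 8.38%, 2.62%, 5.87% and 7.91% after. The difference was -30.5 points (limma adjusted p = 0.00234). VMP1 fell by 29.4 points, LDAF1 by 24.5 and ELP2 by 18.1. BAZ1A rose by 20.7 points, NEMP2, a protein of the nuclear envelope, by 16.1 (41.5% ± 2.49 to 57.6% ± 5.02), CKMT1B by 13.1 and ARMCX4 by 12.9. ARMCX4 had its members at 30.9% to 33.1% before and 43.4% to 47.8% after. BAZ1A, NEMP2, CKMT1B and ELP2 lost their call without any 1 of the undifferentiated libraries, BAZ1A also without replicate 24 and CKMT1B without 23. For VMP1 the difference against protein_coding and NMD transcripts alone was -4.60 points (limma adjusted p = 0.553), and for ELP2 -23.1 points (0.0667), neither of them called. Within lane 8, VMP1, ELP2, NEMP2, BAZ1A, CKMT1B and ARMCX4 all lost their call.

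Splicing factors known for poison exons had 46 members in a list of 24 genes. Of the 31 tested, 4 rose and 4 fell, beside 18.3% and 10.3% of all transcripts, and none of the 7 share-tested members was called (differences -1.67 to 3.47 points). CLK1, a kinase of SR proteins, had a member at 9.33 to 12.1 TPM before and 13.0 to 20.5 TPM after, and SRSF7 one at 57.4 to 63.9 TPM before and 42.2 to 47.0 TPM after. Neither pair of groups overlapped. The SRSF7 member's share went from 15.1% to 17.3% while the gene fell further (log2 fold change -0.65). SRSF6 ENST00000483871, whose stop lies in an exon inside an intron of the main coding transcript, stood at 43.4 to 47.5 TPM before and 31.1 to 51.4 TPM after, with overlap. SON and CLK4 differed in share by 2.26 and 0.62 points, without a call.

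For 40 genes of hnRNPs and other RNA-binding proteins that limit their own amounts, 28 of 53 members were tested, 5 rose and 6 fell, beside the same 18.3% and 10.3% of all transcripts, and none of 6 share-tested members was called (differences -3.78 to 6.39 points). QKI, which directs splicing and RNA stability, had a member at 57.4% to 63.2% of the gene before and 62.6% to 68.9% after, which overlap. On the log2 scale of TPM, the member of RBM39 (ENST00000490484) was higher by 0.56 and that of HNRNPDL (ENST00000349655) lower by 0.25. That of HNRNPLL was lower by 0.34 and that of NOVA1, a neuronal splicing factor, higher by 0.40. These members were picked by share difference, and the sizes are given without a call in TPM. Of 21 ribosomal protein genes in the list, 20 fell and none rose, where 17.4% of all genes fell. Of their 33 members 23 were tested, 6 fell and none rose, where 10.3% of all transcripts fell, and none of 4 share-tested members was called (-2.25 to 1.42 points). RPL22L1, a paralog of RPL22, had the largest fall of the named ones, from 144 ± 3.92 to 65.8 ± 4.83 TPM (SD, n = 4) at a share of 37.5% before and 35.3% after. The list does not hold every ribosomal protein gene, so these counts are for the list alone. RPS25, outside it, had a member called higher (mean 2.75 before, 4.40 TPM after) while its gene fell from 1815 to 1374 TPM. The RPL37A and RPL35A members, also outside it, fell.

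The genes of the pathway itself split in both directions. Over all 17077 tested genes, 33.9% were called higher and 17.4% lower by limma on gene sums. Of the 40 pathway genes tested, 7 rose and 14 fell; their log2 fold changes had a median of -0.12 against 0.10 for all genes. Scaling moved these counts: 2 rose and 22 fell with median-of-ratios scaling and 3 rose and 23 fell with quantile normalization, where the median of all genes was -0.02 and -0.07. Over all genes 4529 rose and 4461 fell of 17020 with median-of-ratios scaling, and 4173 rose and 5098 fell of 17077 with quantile normalization.

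Of 18 NMD factors, 4 rose and 6 fell. SMG6, the endonuclease that cuts next to the premature stop, stood at 10.2, 7.81, 11.6 and 11.9 TPM before and 23.7, 27.1, 26.1 and 22.5 TPM after. MOV10, an RNA helicase that binds UPF1, stood at 15.7 to 19.7 TPM before and 36.9 to 46.3 TPM after. For both, every differentiated library was above every undifferentiated one, with log2 fold changes of 1.20 ± 0.13 and 1.16 ± 0.09 (limma adjusted p = 8.75e-05 and 1.74e-05). GNL2, a nucleolar GTPase, fell by 0.37. The core factors were not called with TPM as deposited: UPF1 was at 21.1 to 23.0 TPM before and 18.6 to 22.3 TPM after (adjusted p = 0.144), UPF2 had a log2 fold change of -0.09, UPF3A 0.14 and UPF3B -0.02. SMG1, the kinase, was at 38.0 to 41.2 TPM before and 38.4, 23.1, 28.98 and 36.3 TPM after (adjusted p = 0.0784). UPF1, UPF2, UPF3B and SMG1 were called lower under quantile normalization and also under median-of-ratios scaling, and the lower limma adjusted p of the 2 was 0.000944, 0.00913, 0.00776 and 0.00341. UPF1 and SMG1 were also called lower without replicate 21, and UPF3A higher without replicate 22 (limma adjusted p = 0.0394).

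Of 10 genes of the exon junction complex and its partners, 1 rose and 3 fell. ICE1, which helps UPF3B bind the complex, stood at 31.2 to 35.8 TPM before and 13.6 to 19.2 TPM after, a log2 fold change of -1.01. MAGOHB and RBM8A, of the core, fell by 0.24 and 0.16, and PYM1, which takes the complex apart, rose by 0.30. The core helicase EIF4A3 and MAGOH were not called. Of 12 release factors and decay enzymes, 2 rose and 5 fell. DCP2, the decapping enzyme, fell by 0.67, PABPC1, the poly(A)-binding protein that counters NMD, by 0.59, GSPT1 (the release factor eRF3a) by 0.50 and DCP1A, a decapping activator, by 0.45. PYM1 lost its call with both other scalings and without replicates 17, 18, 19, 20 or 23 in turn, and DCP1A without 17, 18, 20, 22, 23 or 24. Both also lost it with no filter on low values. Within lane 8, RBM8A, PYM1 and DCP1A were not called.

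**Figure D5:**
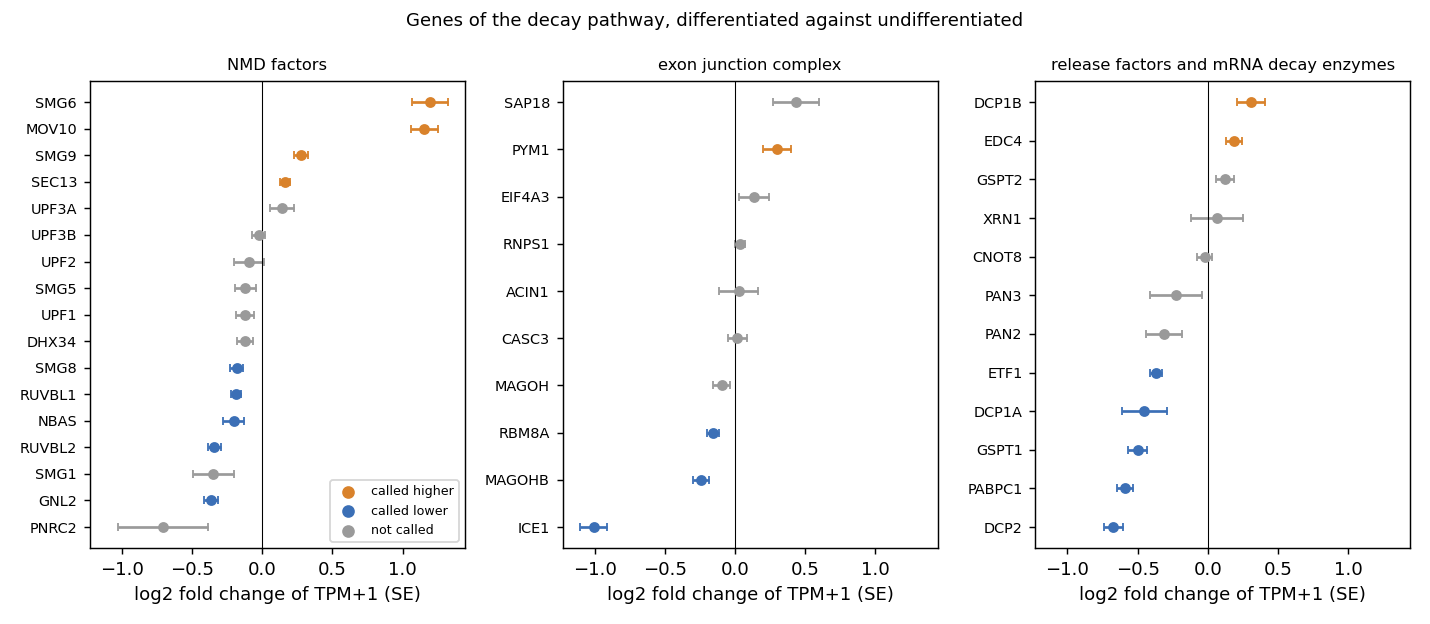
Log2 fold change of summed gene TPM+1, differentiated against undifferentiated, with its standard error (x axis) for 39 of the 40 tested genes of the pathway in 3 lists (rows; n = 4 and 4 libraries). Orange genes were called higher (7), blue lower (13 of those drawn) and grey not called; SMG6 and MOV10 stand highest and ICE1 lowest.

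Pathway genes have members of their own, few of which were high enough to test. ACIN1, a partner of the exon junction complex, had a member at 14.7 to 17.8 TPM before and 18.5 to 21.1 TPM after that was called higher. One of MAGOHB (ENST00000544850) was called lower, at 2.16 to 3.57 TPM before and 1.40 to 2.19 TPM after. RUVBL2 had one (ENST00000221413) at 39.6% of the gene before and 38.2% after, which fell with the gene from 38.5 to 29.3 TPM.

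Genes whose main mRNA is a known target of the pathway were also listed, since that mRNA is mostly typed protein_coding. Of 25 such genes 24 were tested, 10 rose and 6 fell, beside 33.9% and 17.4% of all genes, and the median log2 fold change was 0.20 against 0.10 for all genes. UPP1 (uridine phosphorylase) rose by 2.44, CDKN1A (the p21 cell cycle inhibitor) by 2.11, DDIT3 (the stress factor CHOP) by 1.54 and SAT1 (a polyamine acetyltransferase) by 1.32. CDKN1A stood at 14.9 to 18.7 TPM before and 71.6 to 76.8 TPM after. Of 7 tested members in these genes, 3 rose and none fell, where 18.3% of all transcripts rose.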

How the data were processed

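RNA was measured in 8 SH-SY5Y libraries made with an Illumina stranded mRNA kit, per the labels' protocols, and grouped by the cell type label. The authors deposited 1 table of TPM per Ensembl transcript; TPM divides estimated reads by transcript length and scales each library to a common sum, so no depth is kept. The submitters' processing notes name FastQC 0.11.2, Salmon and build GRCh37; what version, annotation and strand setting Salmon had is not given in the sources used here. Names, transcript types, structures and positions came from GENCODE 29 on GRCh38, which may differ from the models that were quantified; from 93.2% to 95.0% of a library's TPM was in matched transcripts.

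Levels were compared by limma (version 3.58.1, R 4.3.3, intensity trend) on log2(TPM+1) for transcripts, and for gene sums, with a mean of 1 TPM or more. Shares were tested with limma on the arcsine square root, per transcript and for the sum of each transcript type in a gene. All tests were two-sided with Benjamini-Hochberg adjustment over the whole table and a threshold of 0.05, and the code was tested on simulated data. Joins used pandas 2.3.3 under Python 3.11.15.

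Alternatives changed the pseudocount (0.1 or 5 TPM), the filters, the scaling, the trend, the share measure and the gene total, used an exact permutation test, left out each library, or kept lane 8. Named members were the 10 largest called rises and falls with groups apart in TPM and in share, the 4 in summed share, the 8 of highest level, up to 5 per splicing and ribosomal list by share difference, and up to 4 called genes per pathway list plus UPF1, UPF2, UPF3A, UPF3B and SMG1. The members and lists were chosen with earlier results of these data known. PECAM1, SRSF8 and TAF15 had no matched symbol. Some items are not reported here, though they count in the totals.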

Additional observations from a re-analysis of the deposited data

Results flagged for a closer look

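In each group of 4 libraries of a named member, the highest or lowest library was compared with the rest, and 6 of 202 groups (2.97%) had a library whose gap to its nearest neighbour was too large a part of the group's range by Dixon's criterion; chance gives about 1 in 20 groups. B2M ENST00000349264 stood at 302.6 TPM in differentiated replicate 22 and at 209 to 213 TPM in the other 3. COX6C ENST00000520517 stood at 79.0 TPM in undifferentiated replicate 17 against 32.6 to 36.3 TPM, and at 7.31 TPM in differentiated replicate 22, where the other 3 were listed at 0. BAP1 ENST00000490917 stood at 1.69 TPM in differentiated replicate 21 against 0 to 0.234 TPM. In undifferentiated replicate 19, HNRNPLL ENST00000272249 held 44.2% of its gene against 47.8% to 48.4%, and RPL22L1 ENST00000475836 held 36.1% against 37.9% to 38.1%.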

How the results depend on the processing

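No paired analysis was possible because no replicate number occurs in both groups. The exact permutation test over libraries gave 0 calls higher and 0 lower for members in TPM, for shares, for summed shares and for pathway genes: its smallest p is 0.0286, the smallest adjusted p were 0.0877, 0.172, 0.177 and 0.0576, and 770, 144, 169 and 19 had an unadjusted p under 0.05. Members called in TPM numbered 167 higher and 134 lower with a mean of 5 TPM or more, where fewer are tested, 449 lower with quantile normalization, and 178 higher and 75 lower within lane 8; leaving out 1 library gave 285 to 457 higher and 179 (without replicate 20) to 322 (without 21) lower, and 189 lower without 17. Calls in share, higher and lower, were 9 and 8 as a log2 ratio, 9 and 11 in genes of 1 TPM or more, 8 and 13 with no minimum difference, 11 and 18 against protein_coding and NMD transcripts only, and 1 and 0 within lane 8; leaving out 1 library gave 1 (without 18, 19, 20 or 23) to 7 higher and 4 to 7 lower, and 2 higher without 17. Summed shares gave 19 lower in genes of 1 TPM or more, 6 lower in genes of 20 TPM or more, 8 higher with no minimum, 11 and 20 against protein_coding and NMD transcripts only, and 0 and 1 within lane 8; leaving out 1 library gave 2 (without 17 or 20) to 11 (without 21) higher and 5 (without 20) to 17 (without 21 or 22) lower, and each undifferentiated omission gave 7 or fewer lower. Pathway genes gave 2 and 22 under median-of-ratios scaling, 3 and 23 after quantile normalization and 3 and 9 within lane 8, and 4 (without 17) to 9 (without 22) higher when 1 library was left out. The difference in summed member TPM was -1773 under median-of-ratios scaling, and with 1 library left out it was -891 (without 19) to -110 (without 22). The cause of these shifts was not tested. For 86 named results there were 1433 alternative values, of which 1216 kept direction and call, 194 lost the call (66 of them in the permutation test and 23 within lane 8), 14 gained one and 9 changed sign. The sign changes were all in uncalled shares near 0: RACK1 at -0.569 points against protein_coding and NMD transcripts, -0.52 within lane 8 and -0.25 to 0.598 with 1 library left out, RPS3 ENST00000530721 at -0.969 to 0.572 and SRSF6 at -2.98 to 0.174 with 1 library left out. Of the 677 members called in TPM, 539 were also called under median-of-ratios scaling, and 564 after quantile normalization. What depth limits cannot be stated, since TPM keeps none.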
